A study of Mus musculus with 24 samples.

Results

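The RPE/choroid and the sclera are the outer layers of the wall of the eye, and their miRNA signals were compared on 6 of the 24 arrays of the series, 3 of each tissue. The arrays were chosen by their tissue label (Choroid, which the methods call RPE/choroid, and Sclera), and each RPE/choroid array was paired with the sclera array of the same lens group. The 3 pairs came from C57BL/6J mice: normal eyes that wore no lens (label Control), eyes with a 0 D lens (label 0D), and right eyes that wore a −30 D lens for 3 weeks, fixed at 3 weeks of age (label Lens-induced). The methods state that the mice were male and that RNA from 3 mice was mixed for each array of the normal and the −30 D eyes. How many mice gave the RNA of the 0 D eyes is not given in the sources used here. A figure legend of the paper states that the 2 layers were removed with scalpels. Both tissues of a pair came from eyes of the same lens group and lay on the same slide, so that lens group and slide cannot be told apart, but neither separates the 2 tissues. Of the 1881 mouse miRNAs on the array, 266 were detected on at least 1 of the 6 arrays and 191 on all 6. These 191 were compared, and the rest are described by their detection.

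A miRNA is a short RNA that binds messenger RNAs mainly through its seed, the bases near its 5′ end, and lowers their translation or stability. The retinal pigment epithelium (RPE) is a single layer of pigmented cells that supports the photoreceptors, and the choroid under it is a dense bed of blood vessels with pigment cells between them. The sclera is a tough coat of collagen made by fibroblasts, and the eye muscles insert on its outer face. Several miRNAs are known for such cell types: miR-204 and miR-211 for pigmented cells, miR-126a for endothelium, miR-124, miR-9, miR-129 and the miR-183 cluster for neurons of the retina, miR-199 and miR-214 for fibroblasts and other mesenchyme, miR-140 for cartilage, and miR-1 and miR-133 for striated muscle.

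The mature sequences of the miRNAs on which the comparison mainly rests are shown 5′ to 3′ with the seed (bases 2 to 8) in capitals, from RefSeq on build GRCm38.p6. The prefix mmu is left out of all names. miR-204-5p and miR-211-5p share 1 seed, as do miR-20b-5p and miR-106b-5p. The first 10 were higher in RPE/choroid and the last 8 higher in sclera.
miR-126a-3p: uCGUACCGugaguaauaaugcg
miR-204-3p: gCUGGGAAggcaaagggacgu
miR-204-5p: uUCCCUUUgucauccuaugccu
miR-211-5p: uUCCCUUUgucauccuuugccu
miR-129-2-3p: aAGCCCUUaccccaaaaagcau
miR-129-5p: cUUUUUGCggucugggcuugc
miR-183-5p: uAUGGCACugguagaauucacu
miR-96-5p: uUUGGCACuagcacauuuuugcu
miR-20b-5p: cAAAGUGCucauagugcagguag
miR-106b-5p: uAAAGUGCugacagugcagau
miR-199a-3p: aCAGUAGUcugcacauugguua
miR-199a-5p: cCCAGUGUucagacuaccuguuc
miR-214-3p: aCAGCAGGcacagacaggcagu
miR-379-5p: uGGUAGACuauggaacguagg
miR-127-3p: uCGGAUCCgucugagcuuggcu
miR-299b-5p: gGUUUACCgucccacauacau
miR-154-5p: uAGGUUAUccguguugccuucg
miR-7011-5p: aGGAGGAUgggagagggaggugu

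The signal of a miRNA was the sum over its probes above 3 probe errors, and each array was scaled by its 75th percentile among the 79 miRNAs that every array of the series detected. Between 216 and 239 miRNAs were detected on each of the 6 arrays, and the summed signal before scaling was 56731 to 63686 on the RPE/choroid arrays and 35095 to 42652 on the sclera arrays, although the labels give 100 ng of total RNA for each. Differences are given as log2 of RPE/choroid over sclera, each ± the standard error (SE, n = 3 pairs) from limma with the lens group as a block. limma draws the variance of each miRNA toward a value shared by the 191 miRNAs. With 16.01 prior against 2 residual degrees of freedom, the SE mostly reflects that shared value and not the miRNA's own 3 pairs. A miRNA was called at a p-value under 0.05 after Benjamini-Hochberg adjustment over the 191 miRNAs (adjusted p). These p-values rest on the same, mostly shared variance. It comes from 3 pairs of single arrays that also differ in lens group, and does not measure the spread between animals. The lists of miRNAs by cell type and family were drawn up with earlier results of these data known, so their counts are descriptions. In such bulk tissue, fewer cells of a type and less RNA per cell cannot be told apart.

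Of the 191 miRNAs, 34 (17.8%) were called higher in RPE/choroid and 71 (37.2%) higher in sclera, together 105 (55.0%), while 114 had an unadjusted p under 0.05. In all 3 pairs, 59 (30.9%) were higher in RPE/choroid and 76 (39.8%) higher in sclera, and of the called miRNAs 32 and 68 were among these. The 3 RPE/choroid arrays lay above all 3 sclera arrays for 39 miRNAs (20.4%), and the 3 sclera arrays lay above all 3 RPE/choroid arrays for 49 (25.7%). Of the called miRNAs, 26 and 43 were among these, so that no overlap was common among calls. Most differences were small. Only 7 of the miRNAs called higher in RPE/choroid and 23 of those called higher in sclera differed by more than 2-fold, and the extremes were 3.43-fold and 3.60-fold. Across the 191 miRNAs, the differences in 1 pair correlated with those in another at r = 0.68 to 0.81, as a description over miRNAs that share the arrays of each pair.

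**Figure D1:**
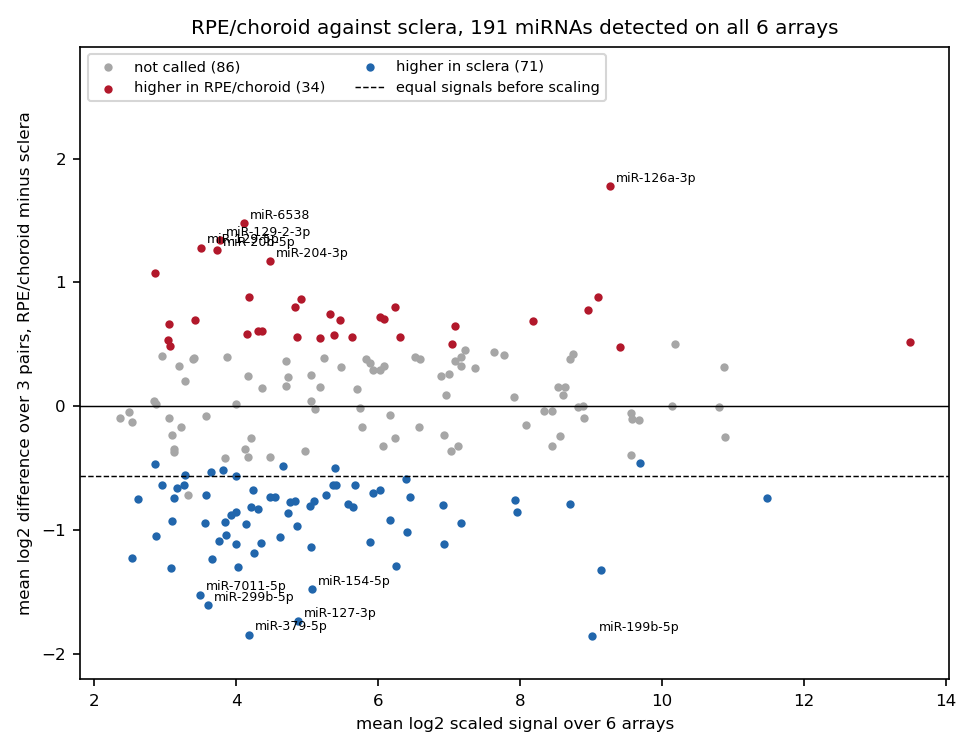
Mean log2 difference over 3 pairs, RPE/choroid minus sclera, against the mean log2 scaled signal over the 6 arrays for 191 miRNAs. Red points are the 34 called higher in RPE/choroid, blue points the 71 called higher in sclera and grey points the 86 not called, and the dashed line, at a difference of −0.56, is where the signals were equal before scaling.

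The number of calls in each direction depended on the scaling, since the RPE/choroid arrays were brighter by 0.55, 0.58 and 0.56 on the log2 scale before scaling in the normal, 0 D and −30 D pairs. Without scaling, 95 miRNAs were called higher in RPE/choroid and 16 higher in sclera, so that 85.6% of the calls were in RPE/choroid against 32.4% with scaling. Quantile normalization gave 41 and 36 calls (53.2% in RPE/choroid), and a normexp background correction gave 21 and 90 (18.9%). Every difference here is therefore a difference relative to the 79 miRNAs that set the scale. Under the main scaling, the 75th percentile over the miRNAs of these 6 arrays, quantile normalization and no scaling, 30 miRNAs were called higher in RPE/choroid each time, and 15 were called higher in sclera each time. When a call with normexp was also required, 11 remained in RPE/choroid and the same 15 in sclera. The normexp correction added an offset of 50, and it moved the differences as a whole toward sclera. The median log2 difference over the fitted miRNAs was −0.23 with it, against −0.11 under the main scaling. This requirement therefore cannot show which of the 2 sets is the firmer. How far the offset itself removed or kept calls among dim miRNAs was not tested.

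**Figure D2:**
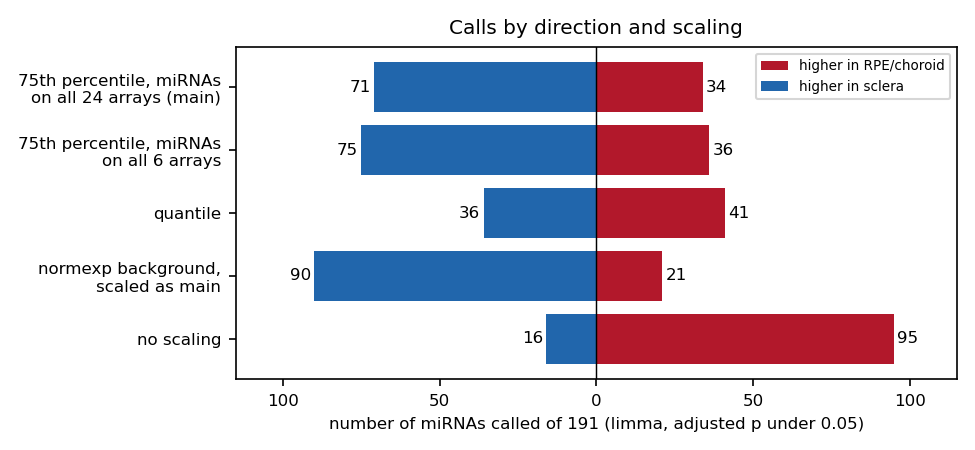
Number of miRNAs called higher in sclera (blue, to the left of 0) and in RPE/choroid (red, to the right) of the 191 tested, under 5 ways of scaling or background correction. The split ran from 21 calls in RPE/choroid and 90 in sclera with normexp to 95 and 16 with no scaling.

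miR-126a-3p, the miRNA of endothelium, had the largest difference of the miRNAs called higher in RPE/choroid. The scaled signal in RPE/choroid was 1198, 1029.7 and 1203 in the normal, 0 D and −30 D pairs, and in sclera it was 393, 387 and 242. All RPE/choroid arrays lay above all sclera arrays, and the mean log2 difference was 1.78 ± 0.21 (adjusted p = 5.09e-06). Its sequence lies at chr2:26591402-26591423 on the plus strand, within the span of the protein-coding gene Egfl7. The other strand of the same hairpin, miR-126a-5p, was detected on 2 RPE/choroid arrays and on no sclera array. The only fitted miRNA of the smooth muscle list was miR-143-3p, with a log2 difference of 0.39 that was not called (adjusted p = 0.117).

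Of the 4 listed miRNAs of pigment cells, all were fitted and 3 were called higher in RPE/choroid, with a median log2 difference of 0.64 over the 4. Over all 191, 17.8% were called higher in RPE/choroid, and the median was −0.11. For miR-204-3p, the signal in RPE/choroid was 34.3, 31.3 and 34.5 and in sclera 13.5, 17.9 and 13.4 in the normal, 0 D and −30 D pairs. The groups did not overlap (log2 difference 1.17 ± 0.20, adjusted p = 1.51e-04). With the normexp correction the difference was 0.25 and was not called, nor was it without the −30 D pair, and with the total signal that the files print per miRNA it turned to −0.73. For miR-204-5p from the opposite arm of that hairpin, the signal in RPE/choroid was 758, 881 and 768 and in sclera 544, 669.9 and 519 in the normal, 0 D and −30 D pairs. The RPE/choroid arrays again lay above all sclera arrays, with a smaller difference of 0.48 ± 0.19 (adjusted p = 0.041). Both arms lie on chr19, from 22750610 to 22750669, within the span of Trpm3. For miR-211-5p, the signal in RPE/choroid was 71.9, 128 and 108 and in sclera 48.4, 74.97 and 51.3 in the normal, 0 D and −30 D pairs. In each pair the RPE/choroid signal was the higher, but the ranges overlapped, since the normal RPE/choroid array lay below the 0 D sclera array. The difference was 0.81 ± 0.20 (adjusted p = 0.00277), and it was not called without the −30 D pair, without the lens group as a block or with all 24 arrays in the fit. miR-211-5p lies at chr7:64205831-64205852 within the span of Trpm1, and it differs from miR-204-5p by 1 base, and whether the probes of the 2 share signal was not tested. The other arm, miR-211-3p, was higher in RPE/choroid in the normal pair only (0.15, −0.57 and −0.66 in the normal, 0 D and −30 D pairs) and was not called (adjusted p = 0.147).

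All 7 fitted members of the list for retinal neurons were called higher in RPE/choroid, with a median log2 difference of 0.78. Over all 191 miRNAs, 17.8% were called higher in RPE/choroid, and the median difference was −0.11. Of the other 4 listed, miR-9-5p, miR-128-3p and miR-183-3p were detected on some of the arrays and miR-124-5p on none. For miR-129-2-3p, the signal in RPE/choroid was 24.8, 24.2 and 17.3 and in sclera 9.22, 8.71 and 7.90 in the normal, 0 D and −30 D pairs. For its partner miR-129-5p, the signal in RPE/choroid was 22.7, 15.98 and 15.4 and in sclera 8.72, 6.05 and 7.36 in the normal, 0 D and −30 D pairs. Neither miRNA overlapped between the tissues, and the differences were 1.34 ± 0.19 (adjusted p = 3.50e-05) and 1.28 ± 0.19 (adjusted p = 4.73e-05). With normexp they were 0.23 and 0.17, and neither was called. For miR-124-3p, the classic miRNA of neurons, the signal in RPE/choroid was 985, 724 and 570.2 and in sclera 587, 346 and 321 in the normal, 0 D and −30 D pairs. The normal sclera array lay above the −30 D RPE/choroid array, so that the ranges overlapped although the RPE/choroid signal was higher within each pair (0.88 ± 0.19, adjusted p = 0.00116). miR-124-3p was not called without the 0 D pair, without the block or with all 24 arrays in the fit.

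The miR-183 cluster, which is known for photoreceptors and other sensory cells, is transcribed from 1 locus on chromosome 6 (30165962 to 30169732, minus strand). For miR-183-5p, the signal in RPE/choroid was 900.0, 588 and 520.0 and in sclera 658, 253 and 327 in the normal, 0 D and −30 D pairs. For miR-96-5p, the signal in RPE/choroid was 487, 386 and 267 and in sclera 393, 170.3 and 179 in the normal, 0 D and −30 D pairs. For miR-182-5p, the signal in RPE/choroid was 49.03, 34.1 and 26.4 and in sclera 43.2, 18.3 and 17.5 in the normal, 0 D and −30 D pairs. All 3 were higher in RPE/choroid in each pair and highest in the normal pair in both tissues, and the log2 differences were 0.78 ± 0.20 (adjusted p = 0.00436), 0.69 ± 0.21 (adjusted p = 0.0103) and 0.56 ± 0.20 (adjusted p = 0.0272). The ranges overlapped for each, since the normal sclera array lay above the 0 D and −30 D RPE/choroid arrays. With normexp, miR-183-5p and miR-96-5p were still called higher in RPE/choroid and miR-182-5p was not. For miR-9-3p, a miRNA of neural progenitors and neurons, the signal in RPE/choroid was 191, 153 and 166 and in sclera 110.5, 112 and 102 in the normal, 0 D and −30 D pairs. These did not overlap, with a difference of 0.65 ± 0.19 (adjusted p = 0.0091).

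The same 7 miRNAs were set beside the retina arrays of the same lens group, since the retina lies against the RPE. The RPE/choroid arrays held 4.53% to 9.27% of the retina signal of miR-182-5p, miR-183-5p, miR-96-5p and miR-124-3p, and the sclera arrays 2.79% to 6.85%. For miR-129-5p the shares were 4.74% to 5.94% in RPE/choroid and 1.98% to 2.28% in sclera, and for miR-129-2-3p they were 4.90% to 5.85% and 1.97% to 2.24%. miR-9-3p stood higher, with 17.7% to 24.1% in RPE/choroid and 12.9% to 13.9% in sclera. The summed signal of the list was 1582 to 2659 on the RPE/choroid arrays and 915 to 1810 on the sclera arrays. The part of RNA from the neighbouring retina in these differences was not tested.

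miRNAs of the miR-17/92 family and its paralogs, which are known for dividing cells, formed another group higher in RPE/choroid. Of 6 fitted members 5 were called, with a median log2 difference of 0.71, and miR-25-3p was not (log2 difference 0.16). Beside these stand 17.8% called higher in RPE/choroid and a median of −0.11 over all 191. For miR-20b-5p, the signal in RPE/choroid was 20.6, 17.6 and 23.9 and in sclera 12.6, 6.78 and 7.42 in the normal, 0 D and −30 D pairs. For miR-106b-5p, the signal in RPE/choroid was 38.3, 39.4 and 44.2 and in sclera 23.2, 24.6 and 19.5 in the normal, 0 D and −30 D pairs. The tissues did not overlap for either miRNA, and the differences were 1.26 ± 0.21 (adjusted p = 1.49e-04) and 0.86 ± 0.20 (adjusted p = 0.00169). With normexp they were 0.06 and 0.21, and neither was called. miR-20b-5p was also not called without the −30 D pair, and with the printed total it turned to −1.59. All 3 fitted miRNAs with the seed AAAGUGC (miR-20b-5p, miR-106b-5p and miR-20a-5p) were called. miR-20a-5p, miR-19b-3p and miR-92a-3p, which share a cluster on chromosome 14 (115044183 to 115044496, plus strand), had log2 differences of 0.70, 0.72 and 0.70. The mature miR-19b-3p and miR-92a-3p also come from the cluster of miR-20b-5p on chromosome X, so that the signals of these loci cannot be separated. miR-20b-5p differs from miR-20a-5p by 2 bases.

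Of the remaining miRNAs named for their size of difference, miR-6538 had signals of 29.9, 24.9 and 32.2 in RPE/choroid and 6.47, 10.1 and 16.9 in sclera in the normal, 0 D and −30 D pairs (1.48 ± 0.23, adjusted p = 5.39e-05). G and C make up 94.7% of its sequence. miR-674-3p had 10.4, 10.3 and 10.9 in RPE/choroid and 5.10, 5.60 and 4.35 in sclera, miR-30a-3p had 22.7, 26.5 and 25.2 against 17.9, 13.8 and 9.78, and miR-181a-5p had 39.2, 39.2 and 34.3 against 22.2, 25.3 and 17.8. None of these 4 overlapped between the tissues, as was so for 26 of the 34 miRNAs called higher in RPE/choroid. Their log2 differences were 1.48, 1.08, 0.88 and 0.80. With normexp, 8 of the 12 miRNAs with the largest differences in RPE/choroid were no longer called and miR-674-3p turned to −0.17, while miR-126a-3p, miR-124-3p and miR-211-5p were still called. Neither miR-6538 nor miR-30a-3p was called without the −30 D pair. With the printed total, 6 of the 24 miRNAs with the largest differences in either direction were still called in their direction, 7 were not called and 11 changed sign, and those still called were miR-126a-3p, miR-129-5p, miR-199b-5p, miR-199a-3p, miR-199a-5p and miR-154-5p.

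**Figure D3:**
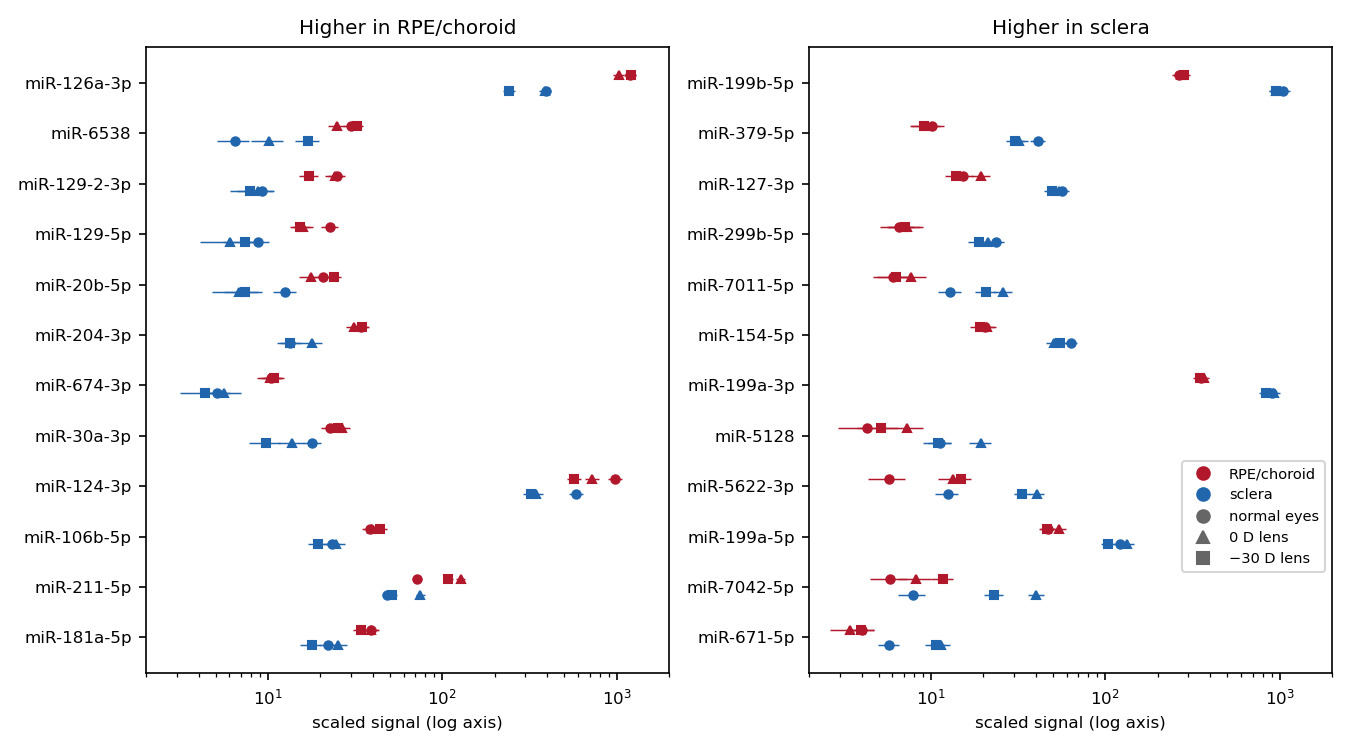
Scaled signal (log axis) of the 12 miRNAs with the largest differences called in each direction, with RPE/choroid in red and sclera in blue. Circles are the normal pair, triangles the 0 D pair and squares the −30 D pair, and bars are the probe error within 1 array. For miR-126a-3p the 3 red points lie between 1030 and 1203 and the blue points between 242 and 393.

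The miRNAs of mesenchyme were higher in sclera throughout. All 4 fitted members of that list were called, beside 37.2% of all 191, with a median log2 difference of −1.30. They were called in the same direction without scaling (median −0.74) and after quantile normalization. For miR-199b-5p, the signal in RPE/choroid was 267, 271 and 283 and in sclera 1052, 949.7 and 958 in the normal, 0 D and −30 D pairs. For miR-199a-3p, the signal in RPE/choroid was 354, 367 and 349 and in sclera 907, 929 and 832 in the normal, 0 D and −30 D pairs. The 3 values of each tissue lay close together and far from those of the other tissue, and the log2 differences were −1.85 ± 0.19 (adjusted p = 1.50e-06) and −1.32 ± 0.19 (adjusted p = 3.50e-05). For miR-199a-5p, the signal in RPE/choroid was 46.7, 54.1 and 46.2 and in sclera 122, 133 and 104 in the normal, 0 D and −30 D pairs. For miR-214-3p, the signal in RPE/choroid was 77.8, 98.3 and 74.6 and in sclera 185, 203 and 153 in the normal, 0 D and −30 D pairs. Neither overlapped, with differences of −1.29 ± 0.19 (adjusted p = 4.18e-05) and −1.11 ± 0.19 (adjusted p = 1.64e-04). A copy of miR-199a and miR-214 lie together on chromosome 1 (162217844 to 162223459, plus strand) within the span of the long non-coding RNA gene Dnm3os. The summed signal of the list was 745 to 790.5 on the RPE/choroid arrays and 2048 to 2266 on the sclera arrays.

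The Dlk1-Dio3 region on chromosome 12 is an imprinted locus that codes for a large group of miRNAs expressed from the maternal chromosome. Of its 30 listed miRNAs, 29 are on the array and 7 were detected on all 6 arrays. All 7 were called higher in sclera, beside 37.2% of all 191, with a median log2 difference of −1.10. For miR-379-5p, the signal in RPE/choroid was 10.2, 9.43 and 9.12 and in sclera 41.1, 32.2 and 30.5 in the normal, 0 D and −30 D pairs. For miR-127-3p, the signal in RPE/choroid was 15.4, 19.5 and 13.9 and in sclera 56.6, 54.5 and 49.5 in the normal, 0 D and −30 D pairs. These were among the largest differences of the comparison, at −1.84 ± 0.19 (adjusted p = 1.50e-06) and −1.74 ± 0.19 (adjusted p = 2.95e-06). For miR-154-5p, the signal in RPE/choroid was 20.5, 20.8 and 19.2 and in sclera 63.2, 50.6 and 55.1 in the normal, 0 D and −30 D pairs. The tissues did not overlap (−1.47 ± 0.19, adjusted p = 1.38e-05). miR-434-3p, miR-300-3p, miR-494-3p and miR-410-3p followed with log2 differences of −1.10, −0.88, −0.70 and −0.53. Without scaling, 4 of the 7 were still called higher in sclera and none in RPE/choroid. miR-299b-5p, which lies in the same region (chr12:109710673-109710693) on the minus strand and was not on the list, had 6.53, 7.32 and 7.14 in RPE/choroid and 23.6, 21.3 and 18.9 in sclera (−1.60 ± 0.19, adjusted p = 6.05e-06).

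All 3 fitted miRNAs of cartilage were called higher in sclera, beside 37.2% of all 191, with a median log2 difference of −0.80. For miR-140-5p, the signal in RPE/choroid was 111, 88.9 and 114 and in sclera 229, 189.9 and 183 in the normal, 0 D and −30 D pairs. For miR-140-3p, the signal in RPE/choroid was 84.7, 101 and 89.4 and in sclera 164, 181 and 134 in the normal, 0 D and −30 D pairs. The sclera arrays lay above all RPE/choroid arrays for both, and the differences were −0.94 ± 0.19 (adjusted p = 8.59e-04) and −0.80 ± 0.19 (adjusted p = 0.00274). miR-140-3p lies at chr8:107551288-107551308 within the span of Wwp2. miR-455-3p, which lies within the span of the collagen gene Col27a1, had a difference of −0.51 ± 0.19 (adjusted p = 0.0322). Without scaling none of the 3 was called, and their median was −0.23.

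The 3 fitted miRNAs of striated muscle were also called higher in sclera, beside 37.2% of all 191, with a median of −1.01. For miR-133a-3p, the signal in RPE/choroid was 29.1, 46.8 and 49.3 and in sclera 58.4, 116 and 96.8 in the normal, 0 D and −30 D pairs. For miR-133b-3p, the signal in RPE/choroid was 44.6, 70.2 and 68.8 and in sclera 78.5, 169.6 and 133 in the normal, 0 D and −30 D pairs. For miR-1a-3p, the signal in RPE/choroid was 10.2, 13.96 and 14.2 and in sclera 15.6, 39.3 and 23.97 in the normal, 0 D and −30 D pairs. The sclera arrays lay above all RPE/choroid arrays for each of the 3. The log2 differences were −1.09 ± 0.19 (adjusted p = 2.02e-04), −1.01 ± 0.19 (adjusted p = 4.39e-04) and −0.95 ± 0.21 (adjusted p = 0.00126), and each was largest in the 0 D pair. Another miRNA of skeletal muscle, miR-206-3p, was detected on the 0 D sclera array only, and miR-133a-5p, miR-499-5p and miR-208b-3p on none of the 6 arrays. The summed signal of the fitted list was 83.9 to 132 on the RPE/choroid arrays and 153 to 324 on the sclera arrays. The part of attached eye muscle in the differences was not tested. Without scaling only miR-133a-3p of the 3 was called.

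Many of the miRNAs called higher in sclera carry high catalogue numbers, which were given to miRNAs found late by sequencing. Of the 51 fitted miRNAs with a number of 1000 or higher, 33 were called higher in sclera and 4 higher in RPE/choroid, with a median log2 difference of −0.64, against 38 and 30 of the other 140, with a median of −0.00. They were dimmer than the others, with a median signal of 18.5 against 50.03. Without scaling their median was −0.07, that is near equal signals, against 0.56 for the others. The median share of G and C was 55.3% among 54 of the 71 miRNAs called higher in sclera that have a RefSeq sequence, 45.5% among 32 of the 34 called higher in RPE/choroid and 47.7% among 76 of the 86 not called. The part of brightness or base composition in these calls was not tested.

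Of these miRNAs, miR-7011-5p had 6.04, 7.68 and 6.31 in RPE/choroid and 12.9, 25.9 and 20.7 in sclera in the normal, 0 D and −30 D pairs (−1.52 ± 0.20, adjusted p = 1.59e-05), with no overlap. miR-5128 had 4.27, 7.29 and 5.13 against 11.3, 19.3 and 11.00, also with no overlap, and miR-5622-3p had 5.73, 13.4 and 14.8 against 12.4, 40.3 and 33.4, where the normal sclera array lay below the 0 D and −30 D RPE/choroid arrays. miR-5622-3p was not called without the block. miR-7042-5p had 5.84, 8.20 and 11.7 against 7.84, 40.1 and 22.9, and its difference in the 0 D pair was far larger than in the other pairs (−0.43, −2.29 and −0.97 in the normal, 0 D and −30 D pairs). It was not called without the 0 D pair, without the −30 D pair, without the block, without scaling or after quantile normalization. miR-671-5p, with a lower number, had 3.99, 3.44 and 3.98 against 5.75, 11.4 and 10.66 (−1.22 ± 0.22, adjusted p = 2.94e-04) and was not called without the −30 D pair. A further group, on none of the lists, was likewise chosen with its values known. Of 10 fitted miRNAs named miR-466, miR-467 or miR-669, a family of repeated copies, 9 were called higher in sclera, beside 37.2% of all 191, and 0 in RPE/choroid. Their log2 differences ran from −0.86 to −0.48, and without scaling none of the 10 was called (median −0.18).

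The widely expressed families ranged from medians near 0 to a median of 0.59. Beside their counts stand 17.8% of all 191 miRNAs called higher in RPE/choroid and 37.2% called higher in sclera. In all 3 pairs, 30.9% of the 191 were higher in RPE/choroid. Of the 9 fitted let-7 miRNAs 1 was called higher in RPE/choroid (miR-98-5p, log2 difference 0.70) and 0 in sclera, with a median of −0.03, and their summed signal was 6432 to 6719 in RPE/choroid and 6620 to 7631 in sclera. None of the 5 fitted miRNAs of the miR-23, miR-27 and miR-24 group was called (median −0.05), and none of the 4 fitted miR-29 miRNAs, which are known to repress collagens (median 0.30). The 8 fitted miRNAs of the miR-15, miR-16, miR-103 and miR-107 group were each higher in RPE/choroid in all 3 pairs, with a median of 0.35, but only miR-15a-5p was called (0.50 ± 0.19, adjusted p = 0.0356). Of the 6 fitted miR-30 miRNAs 2 were called higher in RPE/choroid (median 0.43) and 1 of 5 in the miR-125/99/100 group (0.35). The miR-181 family differed more, with 2 of 3 called higher in RPE/choroid and a median of 0.59, and after quantile normalization all 3 were called. These families depended on the scaling: without it, 7 of the let-7 miRNAs, 3 of the miR-23/27/24 group, all 4 of miR-29 and all 8 of the miR-15/16 group were called higher in RPE/choroid. Without scaling, 95 of all 191 miRNAs were called so. miR-21a-5p, the one fitted of 4 miRNAs linked to inflammation, was not called (0.08).

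**Figure D4:**
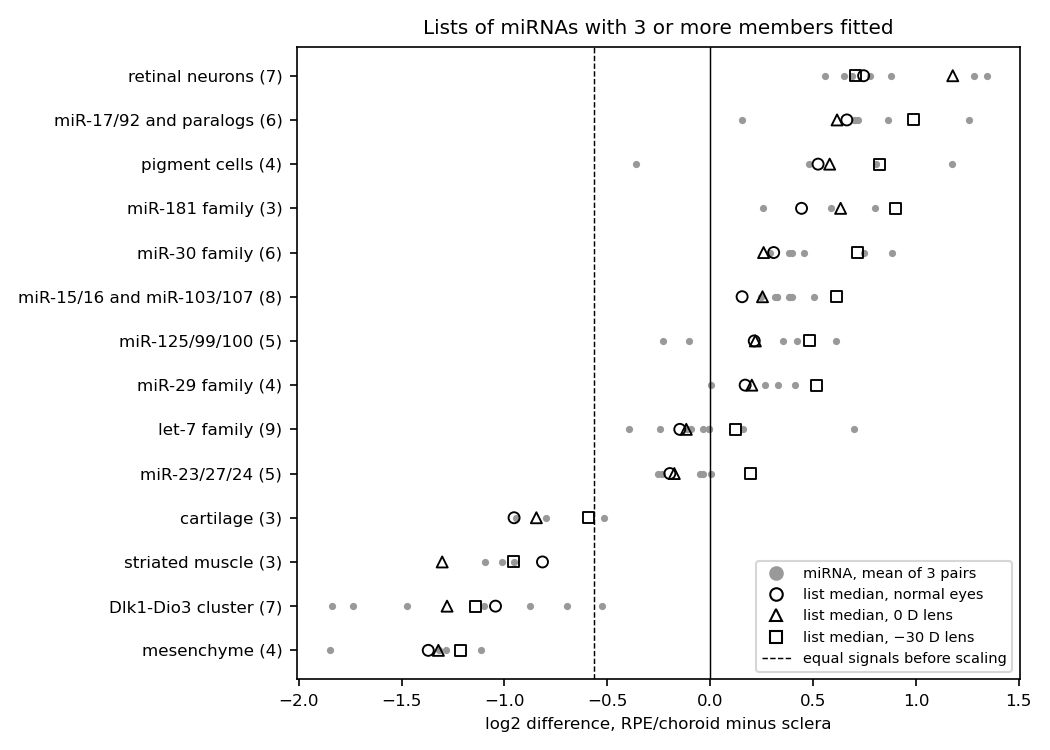
Log2 difference, RPE/choroid minus sclera, of the lists of miRNAs with 3 or more members fitted, with the number fitted in brackets. Grey points are single miRNAs (mean of 3 pairs), open symbols the median of the list in each pair, and the dashed line is where signals were equal before scaling. In the normal pair the list of retinal neurons has the highest median (0.75) and mesenchyme the lowest (−1.37), while in the −30 D pair the miR-17/92 group has the highest (0.99).

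miRNAs of other cell types that could be in the tissues were also compared. Of the red blood cell list only miR-451a was detected (miR-144-3p, miR-144-5p and miR-486a-5p were not), and the signal in RPE/choroid was 34.2, 41.8 and 59.4 and in sclera 32.8, 32.4 and 25.4 in the normal, 0 D and −30 D pairs. It was called higher in RPE/choroid (0.55 ± 0.22, adjusted p = 0.0436), with differences of 0.06, 0.37 and 1.23 in the normal, 0 D and −30 D pairs, but not after quantile normalization. Of the white blood cell list, miR-223-3p had 53.1, 52.6 and 58.2 in RPE/choroid and 56.8, 51.4 and 41.99 in sclera and was not called (adjusted p = 0.571). miR-338-3p, of the list for myelinating glia, was called higher in RPE/choroid (0.58 ± 0.21, adjusted p = 0.0289), but not after quantile normalization, while miR-219a-5p, miR-219a-2-3p and miR-338-5p were not detected. Among 10 miRNAs of surface epithelium, 8 were not detected on any of the 6 arrays, among them miR-205-5p and the whole miR-200 group. miR-184-3p of that list had 147, 99.7 and 132 against 123, 111 and 275, with the highest value on the −30 D sclera array, and was not called. miR-31-5p was detected on 3 RPE/choroid arrays (22.1 to 24.6) and on 2 sclera arrays (7.95 and 8.76). None of miR-10a-5p, miR-10b-5p, miR-196a-5p and miR-196b-5p, which lie in the Hox clusters, was detected, and of miR-221-3p and miR-222-3p the former was detected on 4 of the 6 arrays and the latter on none.

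Set beside the other 6 tissues, the named miRNAs of the 2 layers behaved differently. miR-126a-3p was highest in RPE/choroid of all 8 tissues, and the iris (329 to 350) lay within the range of the sclera, while it was 67.5 to 75.1 in the retina and not detected in the lens. miR-204-3p was also highest in RPE/choroid (31.3 to 34.5), followed by the lens (24.4 to 25.5), but miR-204-5p was highest in the lens (1198 to 1349) and miR-211-5p in the iris (772 to 906). In the iris, miR-204-5p was lowest of the 6 ocular tissues (288 to 304), and miR-204-3p was detected on only 1 array (2.63). Over the 34 miRNAs called higher in RPE/choroid, 3 had their highest median of the 6 ocular tissues in RPE/choroid itself, 15 in the retina and 10 in the lens. Of the 71 miRNAs called higher in sclera, 45 had their highest ocular median in the sclera. Over all 191 miRNAs these counts were 55 for sclera, 52 for retina, 44 for lens and 8 for RPE/choroid. Since the 75th percentile that sets the scale was low on the lens arrays (log2 −1.66 to −1.27 relative to the mean of the 24 arrays), the ranking was repeated on unscaled signals, where 19 of the 34 were highest in the retina, 8 in the iris, 4 in RPE/choroid and 3 in the lens. Of the 71, 37 were then highest in the sclera, 13 in the lens and 9 in RPE/choroid. Over all 191 the unscaled counts were 65 for retina, 38 for sclera, 33 for iris, 29 for RPE/choroid and 23 for lens.

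The mesenchyme miRNAs were higher in sclera and in RPE/choroid than in iris, lens and retina. miR-199b-5p was 950 to 1052 in sclera, 308 to 339 in cornea, 267 to 283 in RPE/choroid and 134 to 149 in iris, was 3.05 to 5.09 in retina and was not detected in the lens. miR-214-3p was 74.6 to 98.3 in RPE/choroid and 153 to 203 in sclera, 11.8 to 13.4 in iris, and was not detected in lens, retina, SCN or LGN. miR-199a-5p likewise was not detected in these 4 tissues. miR-127-3p, miR-379-5p and miR-154-5p of the Dlk1-Dio3 region had another pattern, with their highest medians in the tissue labelled SCN, followed by that labelled LGN. miR-127-3p was 419 to 482 in SCN and 200 to 219 in LGN, 57.7 to 70.1 in the retina and 49.5 to 56.6 in sclera, against 13.9 to 19.5 in RPE/choroid. miR-379-5p was 97.6 to 121 in SCN and 30.5 to 41.1 in sclera, but only 9.17 to 10.6 in the retina, close to its 9.12 to 10.2 in RPE/choroid. miR-7011-5p and miR-5128 were detected in sclera and RPE/choroid and in none of the other tissues. miR-133a-3p was highest in the lens (267 to 315), above its 58.4 to 116 in sclera.

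**Figure D5:**
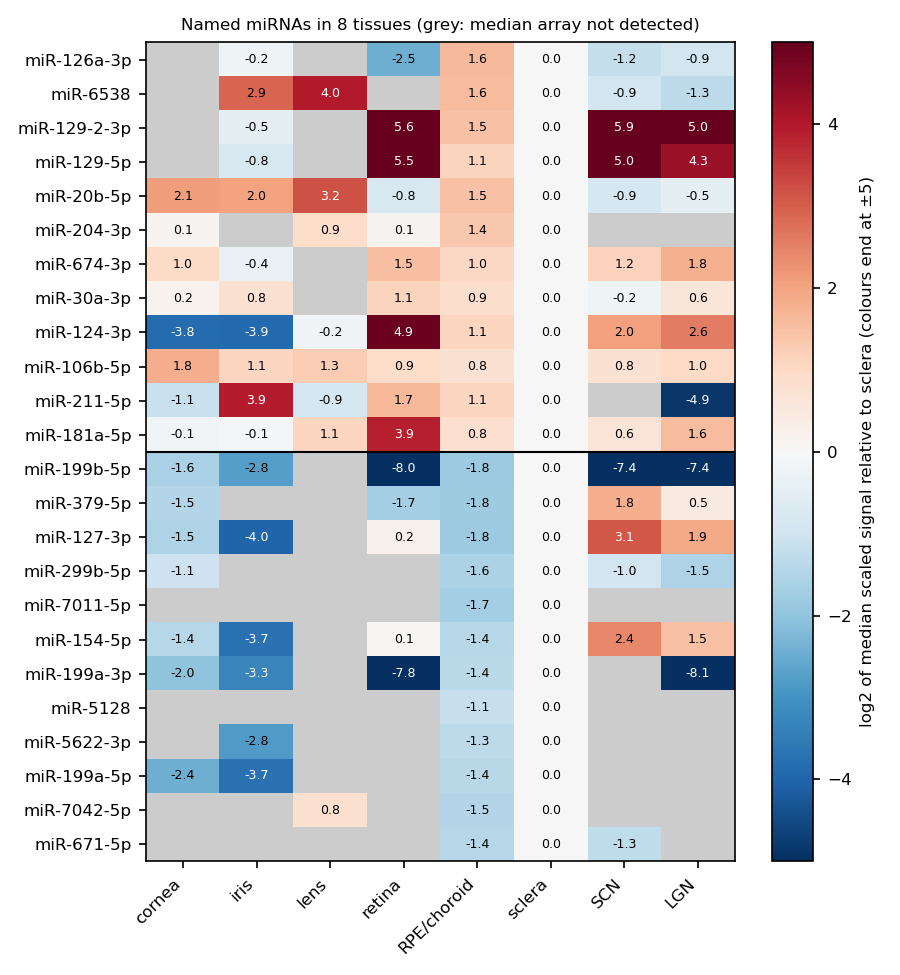
Median scaled signal of the 24 named miRNAs in 8 tissues, as log2 relative to sclera, with the 12 higher in RPE/choroid above the black line and the 12 higher in sclera below it. Grey cells are tissues whose median array did not detect the miRNA. miR-129-2-3p, miR-129-5p and miR-124-3p are dark red in the retina, and miR-199b-5p and miR-199a-3p are blue in every other tissue that detected them.

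A few miRNAs were detected on all arrays of 1 tissue only. In RPE/choroid these were 5 dim ones, miR-9-5p (7.88, 6.47 and 5.76), miR-30c-2-3p (6.02, 5.58 and 5.51), miR-326-3p (5.31, 5.86 and 5.68), miR-34c-5p (5.13, 4.95 and 4.38) and miR-181d-5p (4.33, 5.32 and 4.07), given in the normal, 0 D and −30 D pairs. In sclera it was miR-382-5p of the Dlk1-Dio3 region (7.49, 10.01 and 7.09). On the arrays that did not detect them, 3 errors summed over all probes of the miRNA came to 7.17 to 11.4, or 7.82 to 9.45 for miR-382-5p. This sum is an upper bound for an undetected signal. On average over the 3 arrays, none of these miRNAs exceeded the bound, so that no fold can be given. These counts of 5 and 1 turned to 1 and 5 when only probes above 5 errors were summed. A further 69 miRNAs were detected on some of the arrays in another pattern, and 1615 on none of the 6.

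The size of the differences varied between the 3 pairs, without a common order of the pairs over the lists. The median log2 difference over the 191 miRNAs was −0.15 in the normal pair, −0.22 in the 0 D pair and 0.07 in the −30 D pair. The list of retinal neurons had medians of 0.75, 1.18 and 0.71, the miR-17/92 group 0.66, 0.62 and 0.99, the pigment cell list 0.52, 0.58 and 0.82, the mesenchyme list −1.37, −1.32 and −1.21, and the Dlk1-Dio3 miRNAs −1.04, −1.28 and −1.14. Each of these lists kept its sign in all 3 pairs. With 1 array per tissue and lens group, whether the difference between the layers itself changed with the lens was not tested.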

How the data were processed

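The authors labeled the RNA with cyanine 3 and digitized 1-color mouse miRNA arrays (miRBase 21) with Agilent Feature Extraction 10.7.1.1, and the deposited scanner files hold intensity values after background subtraction, a total signal with its error per probe. From these, the signals of the probes above 3 errors were summed for each miRNA and scaled to an equal 75th percentile, and log2 values of the 191 miRNAs detected on all 6 arrays were fitted in limma 3.58.1 (R 4.3.3) with tissue and lens group as terms and Benjamini-Hochberg adjustment (2 residual and 16.01 prior degrees of freedom). The labels give 1 array of each tissue per lens group, and these were taken as pairs, since their deviations from the tissue means correlated at 0.52, 0.60 and 0.29. Whether both tissues of the 0 D pair came from the same animals is not given in the sources used here. The number of arrays limits the precision.

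The 12 miRNAs with the largest difference in each direction, among those called with the same sign in all pairs, the one-tissue miRNAs and the members of 23 lists were named. Members and lists were chosen with earlier results of these data known. RefSeq held a mature sequence for 162 of the 191 miRNAs and 21 of the 24 named. The fit was checked on simulated data. A deposited table named normalized was not used here, because the lens group of its columns could not be read with certainty. Python 3.11.15, numpy 2.4.6, pandas 2.3.3 and matplotlib 3.10.9 were used.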

Additional observations from a re-analysis of the deposited data

Results flagged for a closer look

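In 5 miRNAs called in 1 direction, 1 lens pair went the other way, and these differences between pairs were not tested. Among those called higher in RPE/choroid, miR-8101 had a log2 difference of −0.24 in the 0 D pair and miR-3968 one of −0.024 in the same pair. Among those called higher in sclera, the difference was 0.31 for miR-1904 and 0.21 for miR-574-3p in the −30 D pair, and 0.16 for miR-7686-5p in the normal pair. The signal of miR-574-3p in RPE/choroid was 7.62, 7.20 and 20.8 in the normal, 0 D and −30 D pairs, and in sclera 19.5, 22.6 and 17.97. For miR-7686-5p the RPE/choroid signals were 4.71, 4.93 and 4.65 and the sclera signals 4.21, 6.02 and 20.0.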

How the results depend on the processing

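The counts of called miRNAs depended on the scaling, the background correction and the number of pairs. Without scaling, 95 were called higher in RPE/choroid and 16 in sclera, and 112 and 29 had the same direction in all pairs. Quantile normalization gave 36 calls in sclera, and normexp gave 21 calls in RPE/choroid, with 36 of the same direction. The total signal printed in the files gave 6 and 11 calls, and it is not the sum of the probes for 75 to 83 miRNAs per array. Without the lens group as a replicate block, 17 and 29 were called, and with all 24 arrays in the fit, 33 in sclera. The ratio criteria of the study's methods, applied in every pair, held for 11 and 16 miRNAs, of which 8 and 3 were not detected on all 6 arrays and passed with undetected arrays set to 0.1, so that no fold was measured for them. With probes above 5 errors, 1 miRNA was detected on all RPE/choroid and no sclera arrays, and 5 the other way. Leaving out a pair gave 9 to 27 calls in RPE/choroid (9 without the −30 D pair, 16 without the 0 D pair) and 33 to 64 in sclera (33 without the 0 D pair, 36 without the −30 D pair), with 61 to 68 and 76 to 103 of the same direction. The causes were not tested, other than that fewer pairs leave fewer degrees of freedom.

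Of the 24 named miRNAs, miR-674-3p turned to −0.17 with normexp. With the printed total, miR-20b-5p turned to −1.59, miR-204-3p to −0.73, miR-674-3p to −0.42, miR-30a-3p to −0.14, miR-181a-5p to −0.85, miR-127-3p to 0.52, miR-299b-5p to 0.65, miR-7011-5p to 1.69, miR-5128 to 0.21, miR-5622-3p to 0.95 and miR-7042-5p to 1.21. The scaling over these 6 arrays, the looser detection filter and the intensity trend left all 24 called in their direction, and no scaling and quantile normalization left 23. Without the block, 4 were no longer called (miR-124-3p, miR-211-5p, miR-5622-3p and miR-7042-5p), with all 24 arrays, 2 (miR-124-3p and miR-211-5p), and with the −30 D pair left out, 7. The 75th percentile over all miRNAs was left out, since on each of these arrays that percentile falls on undetected miRNAs, and the deposited normalized table was not run. Dim miRNAs limit what can be compared, such as miR-671-5p, with RPE/choroid signals of 3.44 to 3.99 and probe errors of 0.716 to 0.794.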
